A study of Mus musculus with 36 samples.

Results

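Lungs of female mice given oil dispersed with Corexit 9500 (9500+oil) were compared with lungs of female mice given saline. Corexit 9500 is a surfactant mixture that was sprayed on the Deepwater Horizon spill, and the oil is crude oil from the Macondo (MC252) well. The members are the 6 libraries whose mouse numbers carry the prefix 118 and that belong to these groups, saline mice 1, 2 and 3 and 9500+oil mice 13, 14 and 15, of 36 libraries in all. All were wild-type C57BL/6 females, 8 weeks old at the first dose, that carried no transgene and received a 50 µL dose into the airways on days 0, 7 and 13 before death on day 14. The 9500+oil mice received the water-accommodated fraction of the mixture at a strength of 0.1, and the saline mice the vehicle alone. The study's methods describe oropharyngeal aspiration of a saline-accommodated fraction, and the series' design text intratracheal instillation. RNA of the left lung was sequenced, and each library is 1 animal. The series' design text says that males and females were treated separately, so a difference between the sexes cannot be told apart from one between their treatments.

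As background, inhaled or aspirated irritants reach airway epithelium and alveolar macrophages first. These cells release chemokines, small secreted proteins that recruit neutrophils (CXC ligands such as Cxcl1) and monocytes (CC ligands such as Ccl2). The epithelium adds acute-phase and antimicrobial proteins, and under type 2 cytokines it makes mucus while macrophages turn on Retnla and chitinase-like proteins. Planar hydrocarbons of crude oil bind the aryl hydrocarbon receptor (AhR), whose best known target is the oxidase gene Cyp1a1.

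The 6 libraries held 17501180 to 27430492 counts, and 2 of them stood apart. Mitochondrially encoded genes took 45.09% of the counts in saline mouse 3 (95% Wilson interval 45.07% to 45.12%, counting error only) and 20.67% in 9500+oil mouse 14 (20.65% to 20.69%), against 6.16% to 8.93% in the other 4 mice and 5.27% to 7.68% in male mice. The same pair of libraries held few counts on GC-rich genes, with log2 ratios of GC-rich over GC-poor genes of -3.98 and -2.27 where the 14 female libraries under the 20% limit lay between -0.69 and 0.18. Spearman's correlation of log2 CPM across genes was 0.726 to 0.737 between saline mouse 3 and the other mice, except 0.907 with mouse 14, and 0.979 to 0.992 among the 4 mice other than 3 and 14. No pair of the 6 was alike enough to be 1 library entered again (lowest chi-square per gene 18.9). Lung markers were present in every mouse, with 3590 to 14900 CPM of Sftpc (a surfactant protein of alveolar type 2 cells) and 6220 to 18200 CPM of Scgb1a1 (the club cell secretory protein), each lowest in saline mouse 3. The alveolar type 1 marker Ager was at 179 CPM in saline mouse 3 and 456 CPM in mouse 14, against 1490 to 2080 CPM in the others. The leukocyte marker Ptprc was at 276 and 332 CPM in mice 3 and 14, against 154 to 172 CPM. CPM are counts scaled to a library size of 1000000 after TMM normalization, whose factor was 0.49 in saline mouse 3 and 0.86 in mouse 14 but 1.09 to 1.18 in the others. Most results are therefore given with all 6 mice and again without mice 3 and 14, which leaves 2 mice a side.

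**Figure D1:**
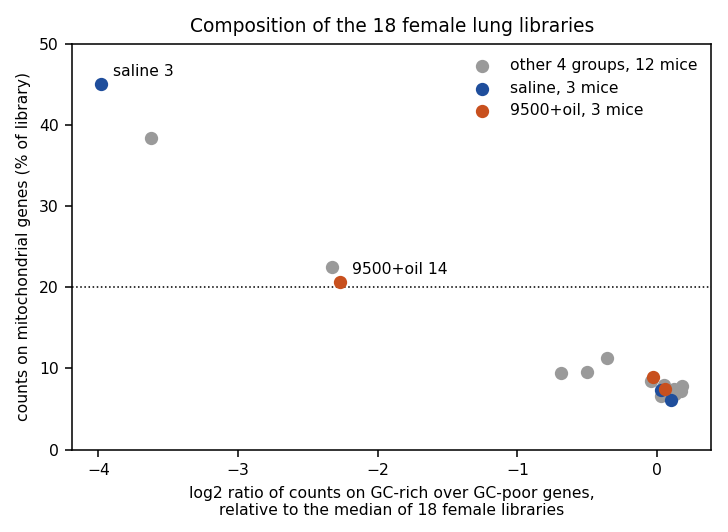
Each point is one of 18 female lung libraries, placed by its log2 ratio of counts on GC-rich over GC-poor genes (x axis, relative to the median) and by the percentage of counts on mitochondrial genes (y axis). Saline mouse 3 (45.09%) and 9500+oil mouse 14 (20.67%) lie above the dotted line at 20%, and the other 4 mice compared here lie at 6.16% to 8.93%.

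Among the 14792 genes tested, the number with a Benjamini-Hochberg adjusted p under 0.05 was 0, both by the quasi-likelihood test of edgeR and by DESeq2. The unadjusted p of edgeR was under 0.05 in 23 genes (0.155% of those tested), 21 lower (0.142%) and 2 higher (0.0135%) in 9500+oil mice. All 3 treated mice lay below all 3 saline mice in 109 genes (0.737%) and above them in 223 (1.51%). The log2 fold change was above 0 in 55.6% of all genes, with a median of 0.044. For a single gene, an exact permutation test of 3 against 3 mice cannot give a two-sided p below 0.1. Without mice 3 and 14, 0 of 14963 genes passed the adjusted threshold, and 185 (1.24%) had an unadjusted p under 0.05, 118 lower (0.789%) and 67 higher (0.448%), while 49.1% of fold changes were above 0. The common dispersion, edgeR's measure of spread between mice, was 0.464 with 6 mice and 0.041 with 4. The SEs given without mice 3 and 14 rest on 2 mice a side. When all 14 female mice under the 20% limit shared the fit, 74 genes had an unadjusted p under 0.05. SEs were then larger in many genes, such as Saa3 (1.22 against 0.79), Cxcl1 (1.06 against 0.61) and Cxcl9 (0.92 against 0.34). They were similar in others, such as Muc5ac (0.62 against 0.69) and C3 (0.25 against 0.26). The genes below are thus described by their values in each mouse and by the log2 fold change with its standard error (SE), and for every one of them the adjusted p was 1 in the comparison of 6 mice. Of the 21 lower genes, 19 are described, namely Saa3, Cxcl1, Cxcl3, Cxcl10, Ccl2, Ccl7, Lcn2, Pigr, Timp1, Tgtp1, Arhgap9, Adra2a, Muc5ac, Clca3, Slc26a4, Fer1l6, Pla2g4c, Ighg3 and Scin. In whole lung, fewer cells of a type and less RNA per cell cannot be told apart.

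Of the 21 lower genes, 5 encode chemokines. Over the 11 CXC chemokines tested the median log2 fold change was -0.73, and 10 of them were below 0. Cxcl1, Cxcl3 and Cxcl10, 3 of these 11, had an unadjusted p under 0.05 (background 0.142%). As single mice were left out the median ran from -1.33 to -0.53, and without mice 3 and 14 it was -0.24, with 9 of 11 members below 0 and 5 of them at p under 0.05 (background 0.789%).

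The neutrophil attractant Cxcl1, whose gene lies near those of Cxcl3 and Cxcl10 on chromosome 5, stood at 1.46, 2.66 and 1.99 CPM in saline mice 1, 2 and 3 and at 0.209, 0.529 and 0.475 CPM in 9500+oil mice 13, 14 and 15. The groups did not overlap, although these values rest on only 5 to 86 counts a mouse. The log2 fold change was -2.38 (SE 0.75), and -2.59 (SE 0.61) without mice 3 and 14. Its neighbour Cxcl3, which binds the same neutrophil receptor, had 0.771, 1.58 and 1.64 CPM in saline mice. In treated mice Cxcl3 had 0.167 and 0.237 CPM in mice 13 and 15 and no count in mouse 14, where 3 counts would be 0.198 CPM. Its log2 fold change was -3.25 (SE 1.16), and -2.53 (SE 0.66) without mice 3 and 14. Cxcl10, an interferon-induced attractant of T cells, stood at 3.09, 6.88 and 5.51 CPM with saline and at 1.17, 1.92 and 1.80 CPM with 9500+oil. Its lowest saline mouse lay above its highest treated mouse, with a log2 fold change of -1.71 (SE 0.60), and of -1.75 without mice 3 and 14.

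Cxcl9 and Cxcl13, ligands of T and B cells that were singled out after their values were seen, overlapped in 6 mice, with mouse 14 inside the range of the saline mice. Cxcl9 had 5.52, 8.55 and 37.0 CPM with saline and 1.55, 8.13 and 1.76 CPM with 9500+oil, and its log2 fold change was -2.28 (SE 1.06). Without mice 3 and 14 it was -2.09 (SE 0.34). Cxcl13 had 4.02, 7.93 and 21 CPM against 1.76, 7.67 and 1.38 CPM, for -1.71 (SE 0.97) and, without mice 3 and 14, -1.93 (SE 0.42). The smallest member differences were in Pf4 and Ppbp of platelets and in Cxcl12, Cxcl14, Cxcl15 and Cxcl16, which lay between -0.73 and 0.11.

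The 3 CXC genes at an unadjusted p under 0.05 also hold a promoter motif in common. Promoters were searched, with the results in view, for GGGANNTTCC on both strands, a motif of the NF-kB type, in windows of 250 bases before to 50 bases after the RefSeq start (GRCm38.p6). It was found in 1.47% of 32851 promoters, in 3 of the 10 CXC genes tested that have an entry (Cxcl1, Cxcl3 and Cxcl10), in 0 of 12 CC genes and, of 17 acute-phase genes, in Bpifb1. Of the 12 genes named as lower, 8 have an entry and 1 of these, Cxcl10, holds it. Ccl2, Ccl7 and Ccl11 have no entry. The windows of 80 bases below show where it lies, with the matched bases in capitals. In Cxcl1 and Cxcl3 both strands match in 1 overlapping run that begins 71 and 73 bases before the start, and in Cxcl10 the run begins 159 bases before it.
Cxcl1, chr5:90891134-90891213, + strand: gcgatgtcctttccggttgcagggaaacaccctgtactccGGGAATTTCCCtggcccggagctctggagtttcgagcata
Cxcl3, chr5:90785988-90786067, + strand: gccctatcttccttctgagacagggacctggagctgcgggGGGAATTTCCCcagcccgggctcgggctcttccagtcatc
Cxcl10, chr5:92349009-92349088, - strand: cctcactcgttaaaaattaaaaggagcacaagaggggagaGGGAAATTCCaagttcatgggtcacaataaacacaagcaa
Aligned on the motif, Cxcl1 and Cxcl3 were identical at 37 of 80 bases (46.2%), and Cxcl10 matched them at 27 and 28. Other forms of the motif were not searched. The genes and the motif were chosen with the results in view, so these counts describe the promoters and are no test. A match is a run of letters and does not show binding.

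For 17 CC chemokines the median was -0.31, with 11 below and 6 above 0 and 2 lower at p under 0.05 (background 0.142%). Without mice 3 and 14 it was -0.54 over 16, with 13 below 0 and 5 lower at p under 0.05 (background 0.789%). Ccl2, Ccl7 and Ccl11 were among these 5. Their edgeR p was 0.161, 0.121 and 0.333 when all 14 female mice under the 20% limit shared the fit. Ccl2 (chr11:82035571-82037453, + strand), the main monocyte attractant, had 1.38, 3.65 and 2.11 CPM with saline and 1.04, 0.595 and 0.475 CPM with 9500+oil. Ccl7 (chr11:82045712-82047525, + strand), its neighbour, which binds the same receptor, had 1.26, 2.91 and 3.16 CPM against 0.293, 0.132 and 0.665 CPM. Neither gene overlapped between the groups, and their log2 fold changes were -1.79 (SE 0.74) and -2.77 (SE 0.90), and -1.72 and -2.13 without mice 3 and 14. Ccl11, the eosinophil attractant eotaxin, was apart as well, at 5.24, 7.25 and 19.9 CPM against 4.26, 4.63 and 2.66 CPM. Here saline mouse 3 carried much of the distance, and the log2 fold change of -1.58 (SE 0.69) became -0.84 (SE 0.34) without mice 3 and 14. The SE was 0.84 when all 14 female mice under the 20% limit shared the fit.

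Among acute-phase and secreted defense proteins, 17 of 20 tested members were below 0 with a median of -0.37, and 18 were below 0 with a median of -0.52 without mice 3 and 14. With single mice left out the median ran from -0.65 to 0.22. Saa3 (chr7:46711998-46715700, - strand; gene positions are from GENCODE M21 on GRCm38), a serum amyloid A protein made by macrophages and epithelium in inflammation, had the largest difference of the 12 genes named as lower. It stood at 10.2, 49.5 and 4.10 CPM with saline (252, 1599 and 35 counts) and at 1.71, 0.595 and 0.950 CPM with 9500+oil (41, 9 and 20 counts). The groups were apart, although the saline mice differed widely among themselves. Its log2 fold change was -4.29 (SE 1.07), between -4.79 and -2.73 with a mouse left out, and -4.47 (SE 0.79) without mice 3 and 14. Lcn2, the iron-scavenging lipocalin of epithelium and neutrophils, had 159, 299 and 190 CPM with saline and 141, 120 and 106 CPM with 9500+oil. Pigr, the receptor that carries antibodies across the airway epithelium, had 133, 245 and 132 CPM against 87.4, 71.5 and 98.3 CPM. Both were apart by small margins, with log2 fold changes of -0.86 (SE 0.36) and -1.02 (SE 0.36), and of -0.88 and -1.02 without mice 3 and 14.

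The other genes below were named as lower by the rule, except Adra2a, and are not the members of 1 list. Timp1, an inhibitor of matrix metalloproteinases, had 12.9, 31.0 and 21.6 CPM with saline and 11.2, 9.78 and 5.27 CPM with 9500+oil. Its log2 fold change was -1.37 (SE 0.51), and -1.41 without mice 3 and 14. Of the 16 matrix metalloproteinases and inhibitors tested, Timp1 included, 11 were above and 5 below 0, with a median of 0.06 and of -0.06 without mice 3 and 14. Tnfrsf9, a costimulatory receptor of activated T cells (4-1BB), had 2.72, 4.06 and 6.21 CPM against 1.92, 1.39 and 1.76 CPM, for -1.42 (SE 0.61) and -0.88 (SE 0.37) without mice 3 and 14. Arhgap9 had 6.37, 4.55 and 5.98 CPM against 2.97, 1.32 and 1.19 CPM, for -1.66 (SE 0.60) and -1.38 (SE 0.47) without them. Adra2a, an adrenergic receptor named after its values were seen, had 3.53, 6.10 and 2.46 CPM against 1.34, 0.264 and 0.950 CPM, for -2.26 (SE 0.80) and -2.06 (SE 0.42) without them. In Matn2, Lrrc3 and Lama1, of which Matn2 and Lama1 encode matrix proteins, saline mouse 3 was far above the other mice (22.6, 11.3 and 7.03 CPM against at most 3.73, 2.17 and 2.07 CPM). Their log2 fold changes of -2.06, -1.95 and -1.60 became -0.40, -0.40 and -0.49 without mice 3 and 14.

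**Figure D2:**
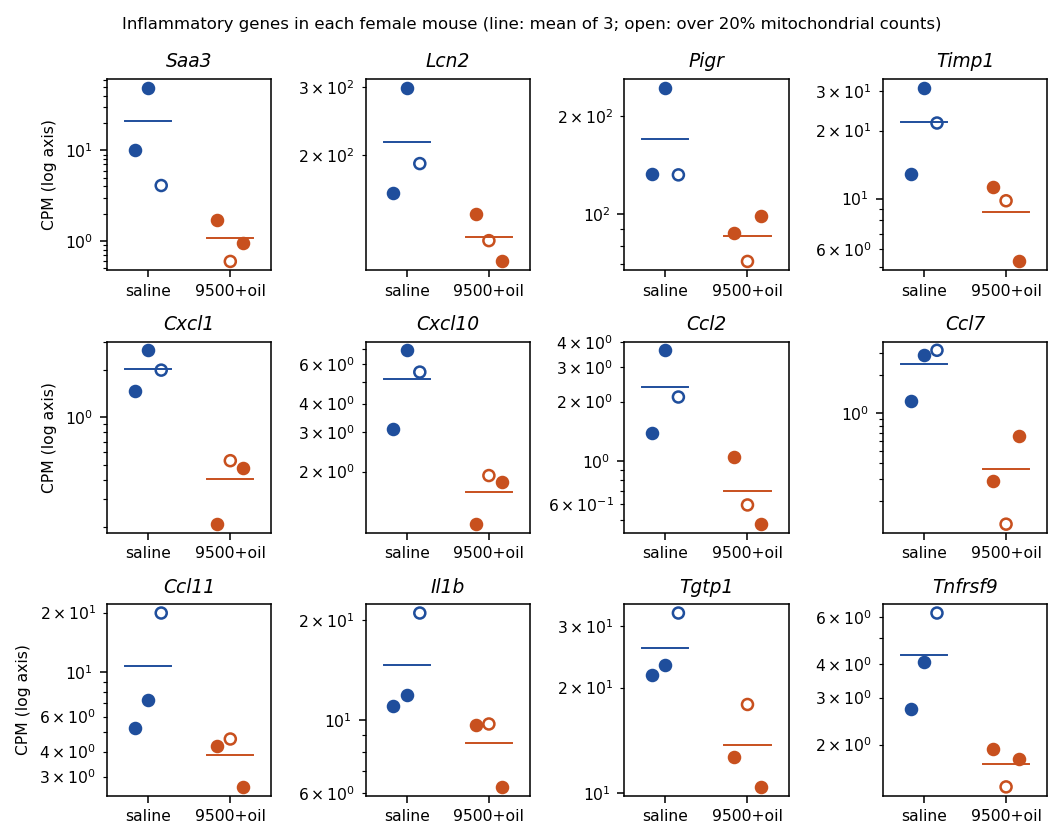
CPM on a log axis of 12 inflammatory genes, shown because their groups did not overlap (0.737% of all genes are apart in this direction), in saline mice 1 to 3 (blue) and 9500+oil mice 13 to 15 (orange), left to right, with the mean of each group as a line and the libraries of mice 3 and 14 as open symbols. In each panel the 3 treated mice lie below the 3 saline mice, by a wide margin in Saa3 (highest treated 1.71, lowest saline 4.10 CPM) and a small one in Lcn2 (141 and 159 CPM).

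Of 15 inflammatory cytokines tested, 8 were below and 7 above 0, with a median of -0.08. Without mice 3 and 14, 10 were below and 5 above 0, with a median of -0.23, and 0 were at p under 0.05 with 6 or with 4 mice. Il1b, the interleukin 1 of macrophages, had 11.0, 11.9 and 21 CPM with saline and 9.61, 9.71 and 6.27 CPM with 9500+oil, so the groups were apart, with a log2 fold change of -0.85 (SE 0.47) and of -0.52 (SE 0.25) without mice 3 and 14. Its antagonist Il1rn overlapped, at 17.3, 22.3 and 61.6 CPM against 15.0, 22.6 and 18.7 CPM (-0.94, and -0.23 without mice 3 and 14). The epithelial cytokine Tslp lay the other way and was also apart, at 1.3, 2.11 and 2.34 CPM against 3.01, 4.96 and 2.56 CPM (log2 fold change 0.81, SE 0.61, and 0.71 without mice 3 and 14).

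Of 11 tested neutrophil markers 8 were below 0, with a median of -0.50, a range of -0.63 to -0.22 with a mouse left out, and -0.38 without mice 3 and 14. Their summed level was 351 to 551 CPM in saline and 248 to 351 CPM in 9500+oil mice, and the 1 marker with p under 0.05 (background 0.142%) was Lcn2, which epithelium also makes. Mmp8 (neutrophil collagenase) and the neutrophil receptor Cxcr2 had log2 fold changes of -0.75 and -0.58 that turned on saline mouse 3, which held 30.7 and 45.2 CPM, and were 0.77 and 0.34 without it. With mice 3 and 14 left out they were 0.17 and -0.38. Camp, Ly6g and Elane were too low to test.

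All 15 tested genes of alternative macrophage activation were below 0, with a median of -0.39 (-0.51 to -0.16 with a mouse left out), and 13 of 15 without mice 3 and 14, with a median of -0.36. Lower at p under 0.05 were 0 of them with 6 mice (background 0.142%) and 2 with 4 mice (background 0.789%). Those 2 were Chil4 and Retnla. Their edgeR p was 0.0537 and 0.082 when all 14 female mice under the 20% limit shared the fit. Retnla (chr16:48842551-48844461, + strand), a resistin-like protein induced by interleukins 4 and 13, had 107, 547 and 327 CPM with saline and 111, 132 and 19.8 CPM with 9500+oil. Chil4, a chitinase-like protein, had 1.18, 27.4 and 12.7 CPM against 2.01, 1.72 and 0.0475 CPM. Both overlapped through saline mouse 1, which was near the treated mice, and their log2 fold changes were -1.96 (SE 0.87) and -3.51 (SE 1.49), and -2.32 and -3.76 without mice 3 and 14. The macrophage lectin Clec10a was apart, at 4.38, 5.67 and 14.7 CPM against 3.55, 4.16 and 2.66 CPM (log2 fold change -1.34, SE 0.66, and -0.69, SE 0.31, without mice 3 and 14).

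Alveolar macrophage markers were below 0 in 11 of 12 genes, with a median of -0.41 that was -0.02 without saline mouse 3 and -0.21 without mice 3 and 14. The scavenger receptor Marco had 27.7, 39.6 and 30.4 CPM with saline and 24.8, 16.5 and 22.7 CPM with 9500+oil, and the fatty acid binding protein Fabp1 had 9.86, 7.25 and 7.97 CPM against 5.68, 5.02 and 4.80 CPM. Both were apart, with log2 fold changes of -0.65 (SE 0.34) and -0.73 (SE 0.42), and of -0.50 and -0.70 without mice 3 and 14. Fabp5 overlapped through mouse 13, at 77.1, 84.3 and 79.6 CPM against 80.4, 58.8 and 47.6 CPM (-0.41, and -0.33 without mice 3 and 14). The summed level of the 12 markers was 1200 to 1740 CPM in saline and 937 to 1440 CPM in treated mice. The part of macrophage number in the genes above was not tested.

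Interferon-induced genes lay below 0 in 27 of 36 members, and in 32 of 36 without mice 3 and 14, with small medians of -0.21 and -0.23. Tgtp1, an interferon-induced GTPase with a near-identical copy that could share its reads, had 21.8, 23.2 and 32.7 CPM with saline and 12.7, 17.9 and 10.4 CPM with 9500+oil. Its log2 fold change was -0.98 (SE 0.40), and -0.95 (SE 0.18) without mice 3 and 14. It was the 1 member lower at p under 0.05 with 6 mice (background 0.142%), and with 4 mice 5 of 36 were lower at p under 0.05 (background 0.789%). Gbp5, a guanylate-binding protein, had 19.2, 21.9 and 47.7 CPM against 16.6, 26.2 and 12.3 CPM and overlapped. It was apart without mice 3 and 14 (-0.50, SE 0.21) and 1 of those 5. Ifi44 was high in the libraries rich in mitochondrial counts (180 CPM in mouse 3, 50.7 CPM in mouse 14, 15.3 to 16.8 CPM in the others), and its log2 fold change of -1.48 was 0.05 without them.

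Complement genes had a median of -0.08, with 17 of 23 below 0 and 0 at p under 0.05. In the 4 other mice it was -0.11, with 16 below 0 and 4 lower at p under 0.05 (background 0.789%). The central component C3 had 837, 1370 and 472 CPM with saline and 679, 687 and 654 CPM with 9500+oil, so saline mice lay on both sides of the treated mice. In mice 1, 2, 13 and 15, C3 and factor B (Cfb) had log2 fold changes of -0.72 (SE 0.26) and -0.74 (SE 0.26). C3ar1, the receptor of the C3a fragment, overlapped in 6 mice (12.3, 8.18 and 24.7 against 6.23, 11.8 and 7.27 CPM), with -0.92 and, without mice 3 and 14, -0.60.

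The mucous cell genes Muc5ac and Agr2 were high in saline mice 2 and 3 and low in saline mouse 1 and all treated mice. Muc5ac (chr7:141788972-141819231, + strand), the gel-forming mucin of goblet cells, had 9.13, 49.3 and 221 CPM with saline and 9.82, 12.8 and 15.6 CPM with 9500+oil. The groups overlapped, and the log2 fold change of -3.0 (SE 1.11) was -1.20 without saline mouse 3 and -1.21 (SE 0.69) without mice 3 and 14. Agr2, a chaperone needed to fold mucins, had 2.76, 16.3 and 10.9 CPM against 5.27, 3.17 and 0.950 CPM, for -1.73 (SE 0.90) and -1.61 without mice 3 and 14. Of the 9 goblet cell markers tested 8 were below 0, with a median of -0.46 (-0.68 without mice 3 and 14), but the median ran from -0.96 to 0.74 as single mice were left out.

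Genes outside that list, picked from the 21 lower genes after their values were seen, were also high in saline mice 2 and 3. The row named Clca3, an older name of the goblet cell protein Clca1, had 61.6, 613 and 503 CPM with saline and 70.9, 125 and 15.7 CPM with 9500+oil. Since the table also has a row named Clca1, which of these rows holds that gene was not settled. Slc26a4, the anion exchanger pendrin, had 2.44, 14.1 and 9.14 CPM against 2.63, 2.38 and 2.33 CPM. Fer1l6, a ferlin, had 2.07, 23.6 and 34.8 CPM against 2.93, 4.63 and 0.950 CPM, and Pla2g4c, a phospholipase, had 0.609, 4.77 and 44.3 CPM against 0.543, 1.92 and 0.617 CPM. In every one of these 4 genes saline mouse 1 lay among the treated mice. Their log2 fold changes ran from -1.86 (SE 0.72) in Slc26a4 to -4.16 (SE 1.60) in Pla2g4c. With 2 mice a side they were -2.96 in Clca3, -1.74 in Slc26a4, -2.72 in Fer1l6 and -2.22 in Pla2g4c. Fcgbp, a mucus-associated protein, was high in saline mouse 2 alone (68.7 CPM, at most 16.1 CPM elsewhere).

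The antibody gene Ighg3 stood at 17.3, 0.588 and 6.92 CPM with saline and at 0.251, 0.661 and 0.190 CPM with 9500+oil, so saline mouse 2 lay among the treated mice. The log2 fold change was -4.52 (SE 1.3), and -5.28 (SE 1.55) without mice 3 and 14, and reads of immunoglobulin constant genes may be split between near-identical copies. The light chain Igkc and the naive B cell heavy chain Ighd did not share this, with 0.40 (SE 0.41) and 0.34 (SE 0.37), and -0.14 and 0.11 without mice 3 and 14. The list of 15 had a median of 0.05, and of -0.06 without them.

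Cyp1a1 was higher in every treated mouse than in any saline mouse, at 3.78, 1.18 and 3.40 CPM with saline and 7.36, 5.75 and 6.46 CPM with 9500+oil. The log2 fold change was 1.18 (SE 0.61), between 0.81 and 1.41 with a mouse left out, and 1.5 (SE 0.52) without mice 3 and 14. The AhR targets as a list had no common direction. Of 12 tested members, Cyp1a1 included, 5 were above and 7 below 0, with a median of -0.22. With mice 3 and 14 left out, 7 of 11 were above and 4 below 0, with a median of 0.02. Cyp1b1 had 9.38, 12.4 and 30.6 CPM against 11.2, 15.8 and 10.3 CPM, and the receptor's repressor Ahrr had 0.365, 0.186 and 4.57 CPM against 0.502, 0.595 and 0.0950 CPM. In both, saline mouse 3 set the direction, and without it the log2 fold changes were 0.19 and 0.51. Without mice 3 and 14 that of Cyp1b1 was -0.01 (SE 0.22), and Ahrr was not tested. Scin, an actin-severing protein placed in this list, had 0.893, 3.87 and 12.3 CPM against 0.794, 1.45 and 0.950 CPM (log2 fold change -2.52, SE 1.04, and -1.46 without mice 3 and 14), and was also highest in saline mice 2 and 3. The core of the AhR response element, GCGTG, lies in the promoters of 7 of 10 list members with an entry and of 32.4% of all promoters. In Cyp1a1 it begins 54 bases before the RefSeq start, in capitals in this window of 80 bases.
Cyp1a1, chr9:57697519-57697598, + strand: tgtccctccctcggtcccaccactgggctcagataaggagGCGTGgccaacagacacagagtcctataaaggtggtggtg

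The other genes whose treated mice all lay higher were of mixed function. By the naming rule 12 genes stood in this direction, with log2 fold changes of 0.49 to 1.63, and Zfp131 was the 1 at an unadjusted p under 0.05. Zfp131, a zinc finger transcription regulator, had 10.4, 16.3 and 4.81 CPM with saline and 20.1, 57.4 and 21.9 CPM with 9500+oil, for 1.63 (SE 0.62) and 0.65 (SE 0.24) without mice 3 and 14. Akap13, a scaffold of protein kinase A, had 84.7, 127 and 166 CPM against 229, 200 and 341 CPM. Its log2 fold change of 0.97 (SE 0.42) was 1.44 (SE 0.28) without mice 3 and 14. Hif3a, of the hypoxia-inducible factor family, had 4.38, 3.53 and 3.52 CPM against 5.6, 5.02 and 12.2 CPM, for 0.96 (SE 0.54) and 1.17 without mice 3 and 14. The collagen gene Col12a1 had 52.9, 43.5 and 41.4 CPM against 56.5, 65.9 and 76.1 CPM, for 0.49 (SE 0.28) and 0.47 without them. Others were Kif23 (a kinesin of cell division), Hnrnpc (an RNA-binding protein), Gpr64 (an adhesion receptor), Nipa1 (a magnesium transporter), Ccdc3 and Gbe1 (the glycogen branching enzyme), with log2 fold changes of 0.64 to 1.31, and of 0.26 to 0.70 without mice 3 and 14. In 4 of the 12 the unadjusted p was under 0.05 without mice 3 and 14 (background 0.448%), a count that is not independent of the rule, which used low p and the direction in those 4 mice. When all 14 female mice under the 20% limit shared the fit, the edgeR p of these genes was under 0.05 only in Akap13 (0.015). It was 0.243 in Zfp131, 0.149 in Cyp1a1 and 0.273 in Hif3a. The other gene with an unadjusted p under 0.05 in this direction was the unnamed locus Gm5537. Agbl5, a tubulin-modifying enzyme picked after its values were seen, was at 1.10 and 0.991 CPM in saline mice 1 and 2 and at 6.85 and 8.64 CPM in mice 13 and 15. It had no count in mouse 3, where 3 counts would be 0.352 CPM, and 0.330 CPM in mouse 14. The groups overlapped with 6 mice, with a log2 fold change of 2.87 (SE 1.47). In mice 1, 2, 13 and 15 it was 2.89 (SE 0.31, adjusted p = 0.673 in edgeR), with an SE of 1.49 when all female mice under the 20% limit shared the fit.

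Cell division and glucocorticoid response were examined as lists. Mitotic genes had a median of 0.11 over 69 members (39 above, 30 below 0, 0 at p under 0.05), which was 0.43 without saline mouse 3 and 0.08 without mice 3 and 14. Kif15, a spindle motor, had 1.46, 1.86 and 1.29 CPM against 1.92, 6.41 and 2.14 CPM (1.13, SE 0.70), and the centromere histone Cenpa lay the other way with -0.66 (SE 0.55), values that were 0.29 in Kif15 and -0.40 in Cenpa without mice 3 and 14. Of 16 glucocorticoid-induced genes 7 were above and 9 below 0 (median -0.04), which was 11 above and 5 below (median 0.14) without mice 3 and 14, and Tsc22d3, the glucocorticoid-induced leucine zipper, was highest in mouse 15 (710 CPM, 188 to 406 CPM in the others). Pdk4, a kinase that restrains pyruvate oxidation, was highest in saline mouse 3 (63.9 CPM, 12.2 to 25 CPM in the others). Genes of replication (59 members), homologous recombination and Fanconi anemia (39) and p53 targets (29) had medians of 0.02, 0.15 and 0.03 with 0 members at p under 0.05, and of -0.12, -0.04 and 0.05 without mice 3 and 14. The 13 mitochondrially encoded genes had a median of -1.60 with 6 mice and of 0.34 without mice 3 and 14, which follows the shares given above.

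**Figure D3:**
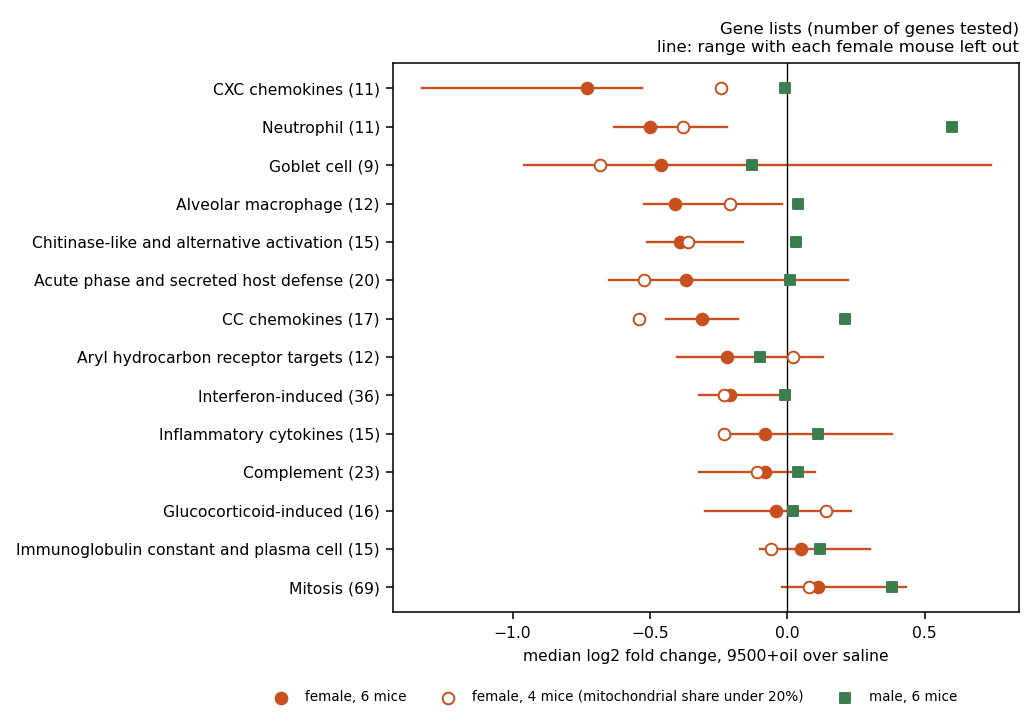
Median log2 fold change of 9500+oil over saline for 14 gene lists in 6 female mice (orange, with the range as each mouse is left out), in the 4 female mice other than 3 and 14 (open) and in 6 male mice (green squares). The medians of CXC chemokines (-0.73), neutrophil markers (-0.50) and alternative activation (-0.39) stay below 0 with any female mouse left out, while male medians of these lists are -0.01, 0.60 and 0.03. Male medians with a mouse left out were not computed.

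The same contrast in male mice is given beside these values. In males 0 of 14889 genes passed the adjusted threshold in edgeR (51 in DESeq2, Muc5ac and Zfp131 among them) and 1373 (9.22%) had an unadjusted p under 0.05, 772 higher (5.19%) and 601 lower (4.04%), with 49.2% of fold changes above 0, at a common dispersion of 0.027. Of the 12 genes named as lower in females, 0 had male groups apart in that direction (background 7.63% of genes tested in both sexes), and male log2 fold changes ran from -0.65 to 0.50. Saa3 had 5.27, 0.892 and 1.72 CPM in male saline mice and 1.77, 2.14 and 4.11 CPM in male 9500+oil mice, a log2 fold change of 0.03 (SE 0.60). The interaction of sex and treatment, the female minus the male log2 fold change, was -4.30 for Saa3 (SE 1.32), -2.26 for Cxcl1 (SE 0.80) and -1.68 for Timp1 (SE 0.53). For Lcn2 it was -1.06 (SE 0.34), and all 4 had an unadjusted p under 0.05. So did 7 of the 12 genes named as lower (background 0.509%), but not Tgtp1, Ccl11, Matn2, Lrrc3 or Lama1, with -0.70 (SE 0.45) in Tgtp1 and -1.54 (SE 1.82) in Matn2. Since these genes were named from the female values, that count describes them and is no test. Over all 15318 genes, 78 (0.509%) had an unadjusted interaction p under 0.05 and 0 passed after adjustment in edgeR (2 in DESeq2, neither named here), so no gene named here is shown to differ between the sexes. With female mice 3 and 14 left out these numbers were 407 (2.63%) and 0, and Saa3 stood at -4.50. CC chemokines were above 0 in 13 of 14 members tested in males, with a median of 0.21, and neutrophil markers in 9 of 11. Cxcr2 and Mmp8 were high in treated male mouse 13 alone. Cxcr2 had 79.6, 26.2 and 19.9 CPM in treated males against 24.4, 25.8 and 26.2 CPM. Mmp8 had 28.7, 7.66 and 10.8 CPM against 7.76, 11.3 and 12 CPM. Lcn2 did not share this, at 172, 149 and 174 CPM against 139, 150 and 126 CPM. List medians with a male mouse left out were not computed.

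Muc5ac and Retnla had higher values in treated than in saline males, and Muc5ac passed the adjusted threshold in DESeq2 but not in edgeR. Muc5ac had 5.67, 6.25 and 6.64 CPM in male saline mice and 11.6, 10.9 and 10.8 CPM in male 9500+oil mice, which did not overlap, for 0.84 (SE 0.14, adjusted p = 0.506 in edgeR and 0.0167 in DESeq2). Retnla had 29.4, 23.6 and 32.6 CPM against 38.9, 38.8 and 51.9 CPM, for 0.60 (SE 0.16). Their female minus male values were -3.67 (SE 1.12) and -2.49 (SE 0.92), and -2.03 and -2.92 without mice 3 and 14. Cyp1a1 in males was at 28.6, 27.2 and 21 CPM with saline and at 26.1, 15.2 and 21.4 CPM with 9500+oil, which overlapped (-0.29, SE 0.20). Levels in female and male mice come from separate tables and were scaled separately. Akap13 was the 1 gene of the 12 named as higher that was also apart in that direction in males (background 7.99%), at 37.7, 40.4 and 80.8 CPM against 83.4, 178 and 108 CPM (1.21, SE 0.34), and its female minus male value was -0.16 (SE 0.57). Mitotic genes, of which 23 of 68 tested had p under 0.05 and lay higher in treated males (background 5.19%), had a male median of 0.38.

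**Figure D4:**
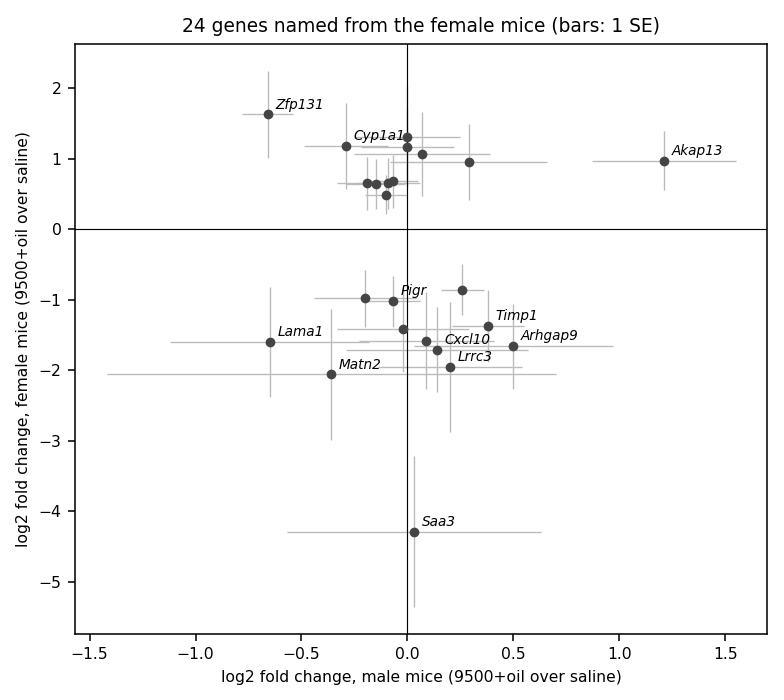
Log2 fold change of 9500+oil over saline in male (x axis) and female (y axis) mice for the 24 genes named from the female values, with bars of 1 SE. Akap13 is above 0 in both sexes (0.97 in female, 1.21 in male mice), Zfp131 lies above 0 in females (1.63) and below in males (-0.66), and Saa3 (-4.29 in females) is near 0 in males.

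The 9500+oil mice were also set beside the female mice given Corexit 9500 or oil alone, 3 a group. These comparisons share the treated mice with the comparison to saline, so their values are given side by side. Oil mouse 6 also held many mitochondrial counts (22.56%), and values without such libraries leave out mouse 14 against Corexit 9500 and mice 6 and 14 against oil. Against Corexit 9500, 0 of 14788 genes passed the adjusted threshold in edgeR (4 in DESeq2, Slc26a4 among them) and 133 (0.899%) had an unadjusted p under 0.05, 86 lower (0.582%) and 47 higher (0.318%) with 9500+oil, and 49.2% of fold changes were above 0. Saa3 ran from 1.15 to 13.6 CPM with Corexit 9500 (median 10.8 CPM) and from 3.29 to 7.97 CPM with oil (median 4.18 CPM), all 3 oil mice lying above the highest 9500+oil mouse (1.71 CPM). The log2 fold changes of 9500+oil were -2.96 (SE 0.89) against Corexit 9500 and -2.22 (SE 0.58) against oil, and -2.67 and -2.17 without those libraries. Of the 12 genes named as lower, 6 were lower at an unadjusted p under 0.05 against Corexit 9500 (background 0.582%). Against oil Saa3 was the 1 such gene (background 0.121%). Lcn2 and Pigr had -1.30 and -0.98 against Corexit 9500 but -0.14 and -0.16 against oil. Females given oil with the other dispersant had 1.2 to 4.02 CPM of Saa3, 33.3 to 65.1 CPM of Retnla, 1.5 to 2.15 CPM of Slc26a4 and 10.7 to 13.4 CPM of Muc5ac. Their 1.24 to 1.92 CPM of Cxcl10, 0.257 to 0.772 CPM of Cxcl1 and 103 to 130 CPM of Lcn2 were near the levels with 9500+oil. Arhgap9 lay mostly higher, at 2.95 to 4.94 CPM against at most 2.97 CPM with 9500+oil. These females were not tested against the 9500+oil mice. Muc5ac was at 27.3 to 35.3 CPM in Corexit 9500 mice, above all 9500+oil mice (-1.30, SE 0.30, and -1.30 without mouse 14). In oil mice it was at 8.11 to 18.6 CPM, which overlapped (0.12, SE 0.42).

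Retnla stood at 125 to 2360 CPM with Corexit 9500 alone (median 327 CPM) and at 104 to 157 CPM with oil. Both ranges overlapped that of the 9500+oil mice (19.8 to 132 CPM). The log2 fold changes of 9500+oil were -3.44 (SE 1.15) and -0.57 (SE 0.64). Slc26a4 gave -2.94 (SE 0.63) against Corexit 9500, where it stood at 5.73 to 34.5 CPM (adjusted p = 0.999 in edgeR and 0.0169 in DESeq2), and Clca3 -1.95 (SE 0.74). Without mouse 14 these differences from Corexit 9500 were -3.86 in Retnla, -2.91 in Slc26a4 and -2.64 in Clca3. Timp1 and Ccl2 gave -2.21 (SE 0.67) and -2.50 (SE 0.92) against Corexit 9500, and -0.29 (SE 0.43) and -0.55 (SE 0.56) against oil. Against Corexit 9500 without mouse 14 they gave -2.28 (SE 0.84) and -2.38 (SE 1.11). Both overlapped the Corexit 9500 mice, at 9.04 to 61.9 CPM of Timp1 and 0.532 to 7.23 CPM of Ccl2. Mitotic genes had a median of -0.51 against Corexit 9500, with 61 of 69 members lower and 2 of them at p under 0.05 (background 0.582%), and of 0.25 against oil. Alternative activation genes had -0.62, with 5 of 15 lower at p under 0.05 (background 0.582%), and -0.13 against oil with 0 of 15 (background 0.121%). CC chemokines had -0.65, with 5 of 16 lower at p under 0.05, and 0.02 against oil with 0 of 15. CXC chemokines had -0.14 against Corexit 9500 and -0.30 against oil, with 0 of 10 lower at p under 0.05 in each. Neutrophil markers had -0.07 and -0.06, and inflammatory cytokines -0.15 and 0.28. Against oil, 0 of 14850 genes passed the adjusted threshold in edgeR (2 in DESeq2, Ighg3 among them) and 25 (0.168%) had an unadjusted p under 0.05, 18 lower (0.121%) and 7 higher (0.0471%), with 52% of fold changes above 0. The Cyp1a1 level of 5.75 to 7.36 CPM with 9500+oil lay above Corexit 9500 (1.42 to 3.96 CPM, log2 fold change 1.11, SE 0.49), overlapped oil (3.69 to 5.97 CPM, with 0.45, SE 0.33) and lay within the range of females given oil with the other dispersant (4.96 to 61.0 CPM).

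**Figure D5:**
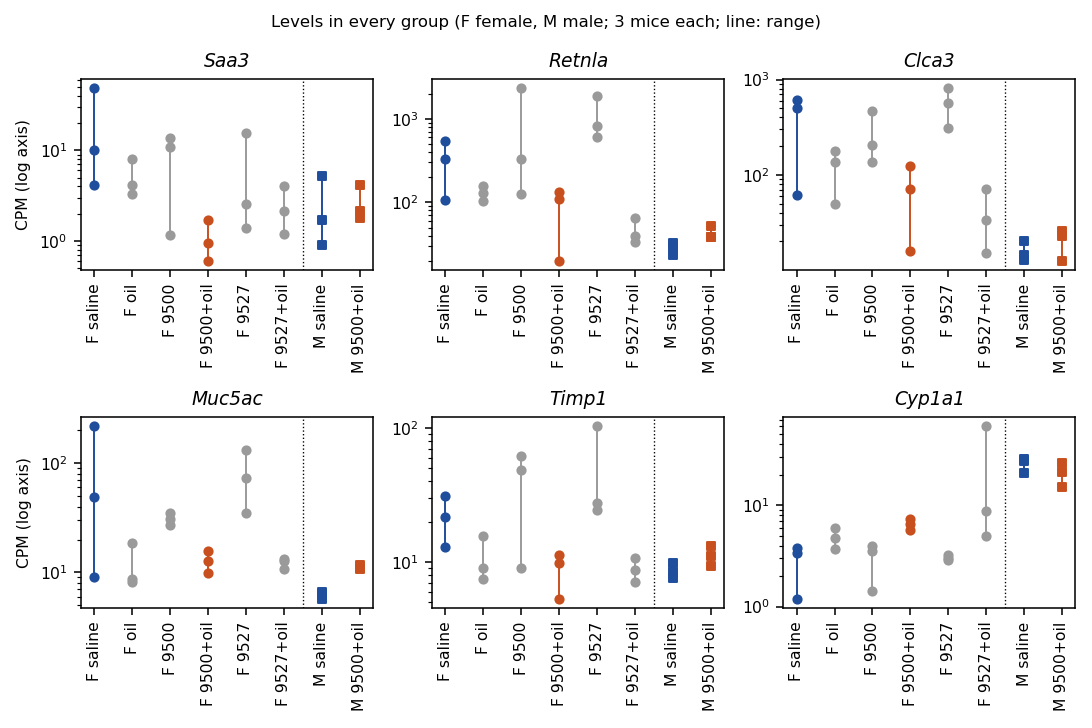
CPM on a log axis of 6 genes in every female group (circles) and in male saline and 9500+oil mice (squares), 3 mice each, with the range as a line. Saa3 is at or below 1.71 CPM in the 9500+oil females and from 4.10 to 49.5 CPM in the saline females, and Cyp1a1 is at 5.75 to 7.36 CPM and 1.18 to 3.78 CPM.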

How the data were processed

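Per the labels and the study's methods, the authors estimated reads per GRCm38 transcript with Salmon and combined them with tximport. They deposited the estimated counts per gene symbol, unnormalized, in a table for each sex (18120 rows for females). The values were whole numbers and were used as they stood. In the female table, 24 rows named by a date were kept, and 4 rows sharing a name (0.0103% of counts) were left out. Positions come from GENCODE M21 and promoters from RefSeq GRCm38.p6. Groups were taken from the sample labels.

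Genes were tested with edgeR 4.0.16 in R 4.3.3 (filterByExpr, TMM, quasi-likelihood F-test, Benjamini-Hochberg), with no covariate and only the groups compared. An SE is the absolute log2 fold change divided by the square root of F. CPM use effective library sizes over all mice of a sex. A list's value is the median of its tested members, and no set test was run. DESeq2 1.42.0, limma 3.58.1 (voom with quality weights) and the settings of the closing section were alternatives. The fits were tested on simulated data.

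The members and gene lists were chosen with earlier results of these data known. Named genes were any past the adjusted threshold (there were 0). They were filled up to 12 a direction by unadjusted p among genes with a mean of at least 1 log2 CPM (prior count 2), separate groups and the same direction without libraries over 20% mitochondrial counts, excluding pseudogenes, unnamed loci and receptor variable genes. The 3 members of lowest p in each described list and the defining members were added. Among the genes named as higher, 1 is not reported here.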

Additional observations from a re-analysis of the deposited data

Results flagged for a closer look

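The female minus male log2 fold change of Zfp131 was 2.31, because all 3 treated females lay above all 3 saline females while all 3 treated males (17.1, 14.1 and 14.4 CPM) lay below all 3 saline males (24, 24.7 and 23.3 CPM). Its SE was 0.67 and its adjusted p was 1 by edgeR, so the difference did not pass the test across all genes. Without mice 3 and 14 it was 1.32. In males alone the log2 fold change was -0.66, with an adjusted p of 0.506 by edgeR and 0.0136 by DESeq2. Sex and its separate treatment cannot be told apart. With single mice left out the female log2 fold change ran from 1.0 to 2.08.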

How the results depend on the processing

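The count of genes past the adjusted threshold was 0 under all alternatives for 9500+oil against saline in females, and the lowest adjusted p in any of them was 0.25. The count at an unadjusted p under 0.05 was 23 and moved to 57 with DESeq2, 90 without a filter on low counts, 114 with all female mice in the fit, 185 without the libraries over 20% mitochondrial counts (saline 3 and 9500+oil 14) and 74 with both choices together. It was 422 with the mitochondrial share as a covariate and 231 with voom and quality weights, and 8 to 53 with single mice left out (8 without 9500+oil mouse 15, 14 without mouse 14, and 45, 35 and 53 without saline mice 1, 2 and 3). The count of adjusted calls was 51 in males with DESeq2 and 0 to 3 in edgeR with a male mouse left out (3 without 9500+oil mouse 13, 1 without saline mouse 2 or 9500+oil mouse 15). It was 4 against Corexit 9500, 2 against oil and 2 for the interaction with DESeq2, and 1 against oil without the high libraries. The cause was not tested. Of 1090 gene values, 1070 kept their direction. Without the high libraries, Mmp8 was 0.17, Ifi44 0.05 and Igkc -0.14, and these values were the same with all female mice in the fit, where Ahrr was 0.15. With quality weights Mmp8 was 0.23, Ifi44 0.10, Igkc -0.07 and Cyp1b1 0.02. With single mice left out, these genes also crossed 0, from -1.26 to 0.77 for Mmp8, -1.21 to 0.34 for Cxcr2, -0.71 to 0.01 for C3, -2.1 to 0.79 for Ifi44, -2.79 to 1.12 for Fcgbp, -0.02 to 0.58 for Igkc, -2.75 to 0.51 for Ahrr, -1.36 to 0.16 for Pdk4 and -0.9 to 0.19 for Cyp1b1. The upper ends of Mmp8, Cxcr2, Ifi44, Ahrr, Pdk4 and Cyp1b1 come without saline mouse 3, those of C3 and Fcgbp without saline mouse 2, and the lower end of Igkc without mouse 14. No paired analysis was possible because the groups compared share no mouse numbers. Counts of 3 correspond to 0.0929 to 0.352 CPM in the 6 mice, and Cxcl1, Cxcl3, Ccl2 and Ccl7 rest on few counts.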
